A study of Mus musculus with 24 samples.

Results

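The distal miRNAs of the Dlk1-Dio3 domain, from mir-379 to mir-410 on mouse chromosome 12, were followed in mammary tumors and normal mammary glands of mice at 4 ages. Membership was set by position in this cluster, while the members named below and the comparison lists were chosen with earlier results of these data known. All 37 miRNAs of the cluster were found among the 510 that the deposited table lists. Of the 37, 35 had at least 1 count and 28 were kept by the filter on low counts, which left 237 miRNAs of the whole table to test.

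Tumors came from PyMT mice, FVB females heterozygous for a transgene in which the MMTV promoter drives polyoma middle T in the mammary epithelium, and control glands from FVB females without it. Groups of 3 PyMT and 3 age-matched control mice were sampled at week 6 (hyperplasia), week 8 (adenoma or mammary intraepithelial neoplasia), week 10 (early carcinoma) and week 12 (late carcinoma with lung metastasis), which gave 24 small RNA libraries in 8 groups. All 4 PyMT stages are called tumor here. Whole pieces of tissue were snap-frozen and extracted, so that epithelium, stroma, fat and blood were measured together, and fewer cells of a type and less RNA per cell cannot be told apart in any value.

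The Dlk1-Dio3 domain is imprinted: Dlk1, Rtl1 and Dio3 are transcribed from the paternal chromosome, whereas the non-coding RNAs Meg3, Rian and Mirg, and the snoRNAs and miRNAs carried in the same region, are transcribed from the maternal one. A methylated control region between Dlk1 and Meg3 sets which chromosome is used, and the distal miRNAs are generally held to be cut from a long transcript of the region that reaches into Mirg. These miRNAs are best known from embryo, placenta and brain. A miRNA hairpin can give a mature RNA from its 5′ arm (5p) and another from its 3′ arm (3p), and each pairs with target mRNAs mainly through its seed, bases 2 to 8.

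In the mm9 annotation the hairpins run on the + strand from the start of mir-379 at position 110947235 to the end of mir-410 at 110982005 on chromosome 12, a span of 34771 bases. Mirg lies at 110973191 to 110987665, while Dlk1 starts at 110691033. An mm9 entry was found under its own name for 31 of the members. Of these, 23 lie between annotated genes, 4 in introns of Mirg (mir-453, mir-154, mir-496 and mir-541) and 4 in Mirg exons (mir-377, mir-412, mir-369 and mir-410). The members without such an entry are mir-299, mir-380, mir-376c, mir-376a, mir-668 and mir-409. By their order along the cluster, 28 members precede Mirg and 9 lie inside it.

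Mature sequences were taken from RefSeq on GRCm38.p6, where all 37 members matched and together had 69 mature RNAs on the + strand of chromosome 12, between 109709065 and 109743784. These 69 RNAs carry 63 different seeds, and 6 seeds occur in 2 members each. The sequences below belong to the 8 members with the highest mean level, since most of the counts rest on them, and to 4 further arms that share a seed with a member or close the cluster. Capitals mark the seed.
miR-379-5p: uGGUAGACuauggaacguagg
miR-379-3p: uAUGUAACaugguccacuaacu
miR-411-5p: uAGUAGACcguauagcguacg
miR-411-3p: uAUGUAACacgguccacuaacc
miR-299a-5p: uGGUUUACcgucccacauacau
miR-299a-3p: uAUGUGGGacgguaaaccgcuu
miR-376c-5p: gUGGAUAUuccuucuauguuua
miR-329-5p: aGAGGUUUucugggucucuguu
miR-329-3p: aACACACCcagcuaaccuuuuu
miR-134-5p: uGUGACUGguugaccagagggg
miR-134-3p: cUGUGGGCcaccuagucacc
miR-154-5p: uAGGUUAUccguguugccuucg
miR-154-3p: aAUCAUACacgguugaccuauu
miR-409-5p: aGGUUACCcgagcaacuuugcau
miR-409-3p: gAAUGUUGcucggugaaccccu
miR-376b-5p: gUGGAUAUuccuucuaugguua
miR-1193-5p: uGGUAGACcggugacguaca
miR-410-5p: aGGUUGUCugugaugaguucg
miR-410-3p: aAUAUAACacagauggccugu

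miR-379-3p and miR-411-3p share the seed AUGUAAC and differ at 2 of 22 positions, counted from the 5′ end as U10C and U22C with miR-379-3p first. miR-379-5p shares its seed with miR-1193-5p. miR-376c-5p and miR-376b-5p differ at a single position, U19G with miR-376c-5p first, so that short reads of these RNAs may be hard to assign, and the levels of mir-376b and mir-376c are uncertain to that extent. The other shared seeds are those of miR-1197-5p with miR-758-5p, miR-453 with miR-496a-5p, and miR-494-5p with miR-410-5p. Counts were deposited per hairpin name, so that 5p and 3p arms could not be separated, and the names without an arm below stand for a hairpin.

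Library totals ranged from 1032241 to 3931375 counts, and from 28 to 34 members were detected per library. Levels are given in CPM, counts relative to the library size after TMM scaling, and 3 counts correspond to between 0.763 and 2.91 CPM before that scaling. This floor covers counting error only. The 9 members that were not tested stayed close to it or below. mir-654 and mir-453 were listed at 0 in every library, while mir-544 had 2 counts over all libraries and mir-1197 had 4. mir-758, mir-323, mir-412, mir-494 and mir-679 had 32, 42, 48, 53 and 60 counts. Because the filter keeps a miRNA that is high in any group, it was also applied without the normal glands of week 6, where the cluster was highest. Of the 28 tested members, 25 still passed, and mir-380, mir-487b and mir-539 did not. On the tumor libraries alone 21 passed, and mir-1193, mir-382, mir-377 and mir-541 were also below the filter.

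The mean summed level of the cluster was below that of normal gland in the tumors of each age, and the sum in the normal gland was lower at week 12 than at week 6. The sums themselves were not tested. In the main fit calls for single members, given further on, were many at weeks 6 and 10 and few at weeks 8 and 12. The contrast of weeks 8 and 10 depended on the fit. With the replicate number as a block 12 members were called at week 8 and 14 at week 10. Without the first, the second or the third tumor of week 10, that week had 4, 1 and 3 calls. Summed over the 37 members, the level at week 6 was 1588, 1389.7 and 1854 CPM in the normal glands and 772, 539 and 631 CPM in the tumors. At week 8 it was 553, 1009 and 1220.45 CPM against 382, 464 and 782 CPM. All normal glands lay above all tumors at week 6, whereas at week 8 the lowest normal gland fell below the highest tumor.

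At week 10 the sums were 510.4, 681 and 930.2 CPM in normal glands and 417, 424 and 421 CPM in tumors. Those of week 12 were 524, 691 and 365 CPM and 439.7, 358 and 325 CPM. The groups were separate again at week 10 and overlapped at week 12, where the third normal gland had less than the first tumor.

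As means these sums were 1611 ± 233 CPM in normal gland and 647 ± 117 CPM in tumor at week 6 (SD, n = 3 per group), 2.49-fold lower in tumor. The corresponding values were 927 ± 341 and 543 ± 211 CPM at week 8 (1.71-fold lower), 707 ± 211 and 421 ± 3.09 CPM at week 10 (1.68-fold lower) and 527 ± 163 and 374 ± 59.3 CPM at week 12 (1.41-fold lower). In each of the 12 pairs of a tumor and a normal library with the same week and replicate number the tumor had the lower sum. This held after TMM scaling, and the labels state no pairing. With library sizes only, the first and the third pair of week 12 turned. Their sums were then 443 and 294 CPM in the normal glands against 506 and 301 CPM in the tumors. The libraries were sequenced on both lanes in every group. On the first lane the log2 ratio of tumor to normal was -1.18, -0.88, -0.29 and -0.25 at weeks 6, 8, 10 and 12, and on the second lane it was -1.56, -0.64, -0.93 and -0.63, each from 1 or 2 libraries per group.

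**Figure D1:**
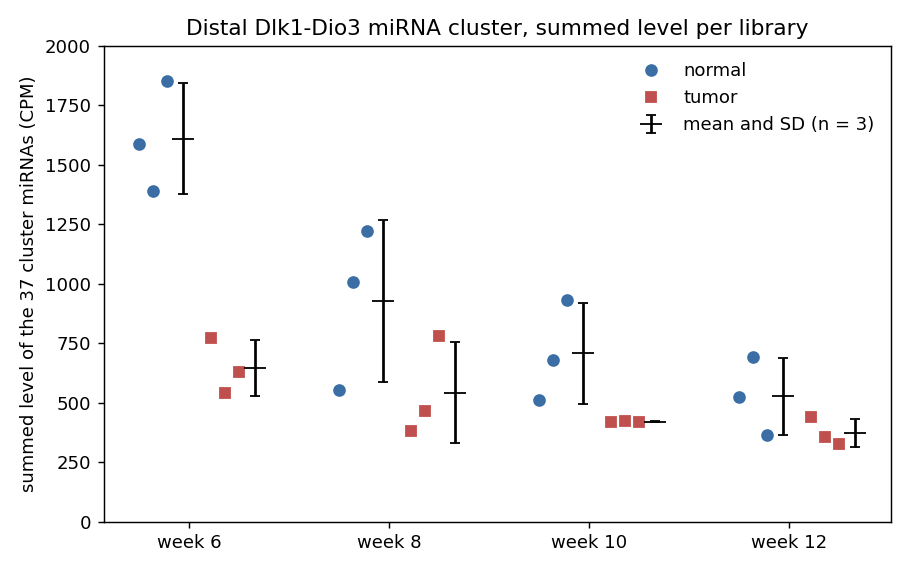
Summed level of the 37 cluster miRNAs in CPM (y axis) in each of the 24 libraries by week (x axis), with normal glands as circles, tumors as squares and the mean and SD of each group of 3 in black. The normal glands of week 6, at 1389.7 to 1854 CPM, sit above all other libraries, and the tumors of week 10 lie within 417 to 424 CPM.

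The members differed widely in level. Mean levels over the 24 libraries ran from 2.47 CPM for mir-380 to 161 CPM for mir-411 among the tested members. The 8 highest were mir-411, mir-409, mir-379, mir-134, mir-154, mir-329, mir-376c and mir-299, and together they held from 58.3% to 68.0% of the cluster's counts in a library. mir-411 alone held from 17.3% to 28.9%. All mature RNAs here are of similar length, so that CPM values compare the members without a correction for length, although ligation and amplification can favour some sequences over others.

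mir-379 and mir-411 open the cluster and share the seed of their 3p arms. At week 6 the level of mir-379 was 86.5, 89.3 and 97.2 CPM in the normal glands and 44.4, 29.1 and 44.7 CPM in the tumors. At week 8 it was 27.8, 72.96 and 58.6 CPM in the normal glands and 28.5, 36.4 and 52.4 CPM in the tumors. Tumors were well below normal glands at week 6, with a log2 fold change of -1.20 (standard error 0.25, adjusted p = 0.00676) in the quasi-likelihood test of edgeR (Benjamini-Hochberg adjusted, as are all p-values here unless called unadjusted), while at week 8 the first normal gland was lower than any tumor. The later levels of mir-379 were 34.6, 40.6 and 66.4 CPM in the normal glands and 36.3, 38.1 and 40.2 CPM in the tumors at week 10. For week 12 they were 33.4, 44.5 and 21.8 CPM in the normal glands and 33.3, 22.4 and 27.9 CPM in the tumors. Both of these weeks showed overlap, with log2 fold changes of -0.31 and -0.24 that did not pass the test.

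mir-411, the most counted member, had 382, 300.1 and 415 CPM in the normal glands and 171, 139.7 and 132 CPM in the tumors at week 6. One stage later it had 142, 215 and 258 CPM in the normal glands and 95.96, 89.3 and 135 CPM in the tumors. Normal glands lay above tumors at both weeks, clearly at the first and narrowly at the second, and the log2 fold changes were -1.31 (standard error 0.22, adjusted p = 0.00304) and -0.95 (standard error 0.32, adjusted p = 0.0493) in edgeR. Levels of mir-411 at week 10 were 126, 143 and 215 CPM in the normal glands and 89.7, 99.8 and 121 CPM in the tumors. Finally, at week 12 they were 127, 132 and 80.9 CPM in the normal glands and 86.7, 92.8 and 68.7 CPM in the tumors. The groups stayed just apart at week 10 (log2 fold change -0.64, adjusted p = 0.0638 in edgeR, and 0.0403 with the replicate number as a block), and at week 12 the third normal gland fell to the level of the tumors.

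mir-299, which follows mir-411, had 96.4, 76.1 and 63.8 CPM in the normal glands and 49.3, 19.4 and 28.5 CPM in the tumors at week 6. Its libraries did not overlap there, and the log2 fold change was -1.27 (standard error 0.36, adjusted p = 0.0198) in edgeR. At week 8 mir-299 had 25.7, 47.9 and 51.1 CPM in the normal glands and 20.6, 25.9 and 29.6 CPM in the tumors, and at week 10 28.5, 31.3 and 49.7 CPM in the normal glands and 30.1, 24.5 and 28.2 CPM in the tumors. Those of week 12 were 34.02, 37.2 and 11.1 CPM in the normal glands and 25.9, 18.6 and 19.6 CPM in the tumors. Normal and tumor libraries overlapped at all of the last 3 ages, and the third normal gland of week 12 was the lowest of all 24 libraries.

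The miR-376 hairpins are known as substrates of adenosine-to-inosine editing, which can alter the seed. mir-376c had 65.7, 67.01 and 78.05 CPM in the normal glands and 42.9, 37.9 and 27.3 CPM in the tumors at week 6 and 32.5, 56.3 and 66.6 CPM in the normal glands and 22.5, 23.5 and 56.3 CPM in the tumors at week 8. The tumors lay below the normal glands at week 6 (log2 fold change -0.97 (standard error 0.24, adjusted p = 0.0131) in edgeR), and the third tumor of week 8 reached the level of the normal glands. At week 10 mir-376c had 35.7, 43.9 and 44.6 CPM in the normal glands and 30.5, 22.7 and 28.2 CPM in the tumors. At week 12 it had 26.2, 35.6 and 26.3 CPM in the normal glands and 25.1, 21.8 and 18.9 CPM in the tumors. The groups did not overlap at either age, narrowly so at week 12, and of these ages week 10 passed the test, with a log2 fold change of -0.61 (adjusted p = 0.043 in edgeR, but 0.0742 with the replicate block).

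mir-376b, the close relative of mir-376c, was lower in level but showed a larger difference at the first age, with 26.5, 21.3 and 30.1 CPM in the normal glands and 10.97, 7.27 and 5.23 CPM in the tumors and a log2 fold change of -1.71 (standard error 0.32, adjusted p = 0.0046) in edgeR. At week 10 mir-376b had 5.65, 9.497 and 14.3 CPM in the normal glands and 3.34, 5.44 and 3.53 CPM in the tumors, and the log2 fold change was -1.29 (standard error 0.43, adjusted p = 0.0355). Tumors lay below normal glands without overlap at both ages. At week 8 mir-376b had 7.38, 21.1 and 14.9 CPM in the normal glands and 4.86, 9.405 and 15.3 CPM in the tumors, and at week 12 6.48, 8.09 and 2.46 CPM in the normal glands and 7.45, 5.12 and 3.77 CPM in the tumors, with log2 fold changes of -0.52 and -0.01 and adjusted p of 0.422 and 0.981 in edgeR. Its values are given in full as a choice made after they were seen, and the difference between mir-376b and mir-376c was not tested.

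mir-329 and mir-134 are known from neurons, where both act in the growth of dendrites and miR-134 limits the size of dendritic spines. mir-329 had 93.1, 81.3 and 101 CPM in the normal glands and 45.4, 29.1 and 37.2 CPM in the tumors at week 6. At week 8 it had 37.2, 69.4 and 73.5 CPM in the normal glands and 21.3, 21.2 and 38.5 CPM in the tumors. The third tumor of week 8 slightly exceeded the first normal gland, and at week 6 the groups were apart. Its week 10 levels were 27.5, 41.3 and 55.5 CPM in the normal glands and 23.9, 22.7 and 19.1 CPM in the tumors. At week 12 they were 36.3, 35.99 and 27.1 CPM in the normal glands and 21.2, 14.7 and 11.3 CPM in the tumors. Normal glands lay above tumors at both of these weeks. mir-329 was the one member past the threshold at every week, and its log2 fold changes were -1.30, -1.14, -0.92 and -1.06 with adjusted p between 0.00495 and 0.0477 in edgeR. Leaving out 1 library kept its sign in every fit, but the test was then passed in 6 of 6 fits at week 6, 2 at week 8 and 3 each at weeks 10 and 12. With library sizes only it missed the threshold at weeks 8 and 12 (adjusted p = 0.0784 and 0.12 in edgeR), without a filter at week 8 (0.0611), and thinned to the smallest library, an alternative chosen after seeing the data, its week 12 value was -0.51 (0.23).

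mir-134 had 64.2, 83.4 and 122 CPM in the normal glands and 45.9, 25.03 and 34.9 CPM in the tumors at week 6. The groups were apart, and the log2 fold change was -1.35 (standard error 0.33, adjusted p = 0.013) in edgeR. Levels varied more at week 8, with 27.2, 61.97 and 104 CPM in the normal glands and 20.04, 31.7 and 46.9 CPM in the tumors. For week 10 they were 22.3, 37.99 and 69.5 CPM in the normal glands and 19.1, 24.5 and 13.4 CPM in the tumors, and the log2 fold change was -1.19 (standard error 0.44, adjusted p = 0.049) in edgeR although the first normal gland lay below the second tumor. By week 12 mir-134 had 18.8, 54.6 and 18.1 CPM in the normal glands and 28.6, 21.8 and 25.7 CPM in the tumors. There 2 normal glands lay below all 3 tumors, and the mean of the normal glands rested on the second.

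mir-154, which the annotation places in an intron of Mirg, had 134, 89.3 and 176 CPM in the normal glands and 31.9, 35.5 and 37.2 CPM in the tumors at week 6. It had 27.2, 45.3 and 88.4 CPM in the normal glands and 8.503, 21.2 and 30.1 CPM in the tumors at week 8. At the first of these ages no tumor came near a normal gland, and at the second the third tumor exceeded the first normal gland. The levels of mir-154 at week 10 were 25.7, 31.6 and 52.5 CPM in the normal glands and 14.3, 17.2 and 13.4 CPM in the tumors. Those at week 12 were 27.2, 47.3 and 14.4 CPM in the normal glands and 13.3, 10.2 and 9.81 CPM in the tumors. The groups were separate at both weeks. Log2 fold changes were -1.93, -1.43, -1.29 and -1.38 with adjusted p of 0.00258, 0.079, 0.00996 and 0.0287 in edgeR, and the share of the cluster's counts held by mir-154 was 3.94% to 9.47% in normal libraries and 2.23% to 6.59% in tumor libraries. With the replicate block the adjusted p of week 8 was 0.000383, past the threshold.

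mir-409, the second most counted member, had 106, 107 and 139.5 CPM in the normal glands and 76.8, 30.7 and 52.3 CPM in the tumors at week 6. Its tumors lay below its normal glands (log2 fold change -1.14 (standard error 0.34, adjusted p = 0.0235) in edgeR), with the first tumor closest to them. At week 8 mir-409 had 46.4, 83.9 and 97.6 CPM in the normal glands and 34.01, 52.9 and 66.7 CPM in the tumors. At week 10 the levels were 39.004, 47.2 and 64.4 CPM in the normal glands and 36.7, 32.7 and 21.9 CPM in the tumors. The groups overlapped at week 8 and were narrowly apart at week 10. With 36.6, 54.2 and 25.9 CPM in the normal glands and 38.05, 23.7 and 35.5 CPM in the tumors at week 12, mir-409 overlapped again, and none of the last 3 ages passed the test.

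**Figure D2:**
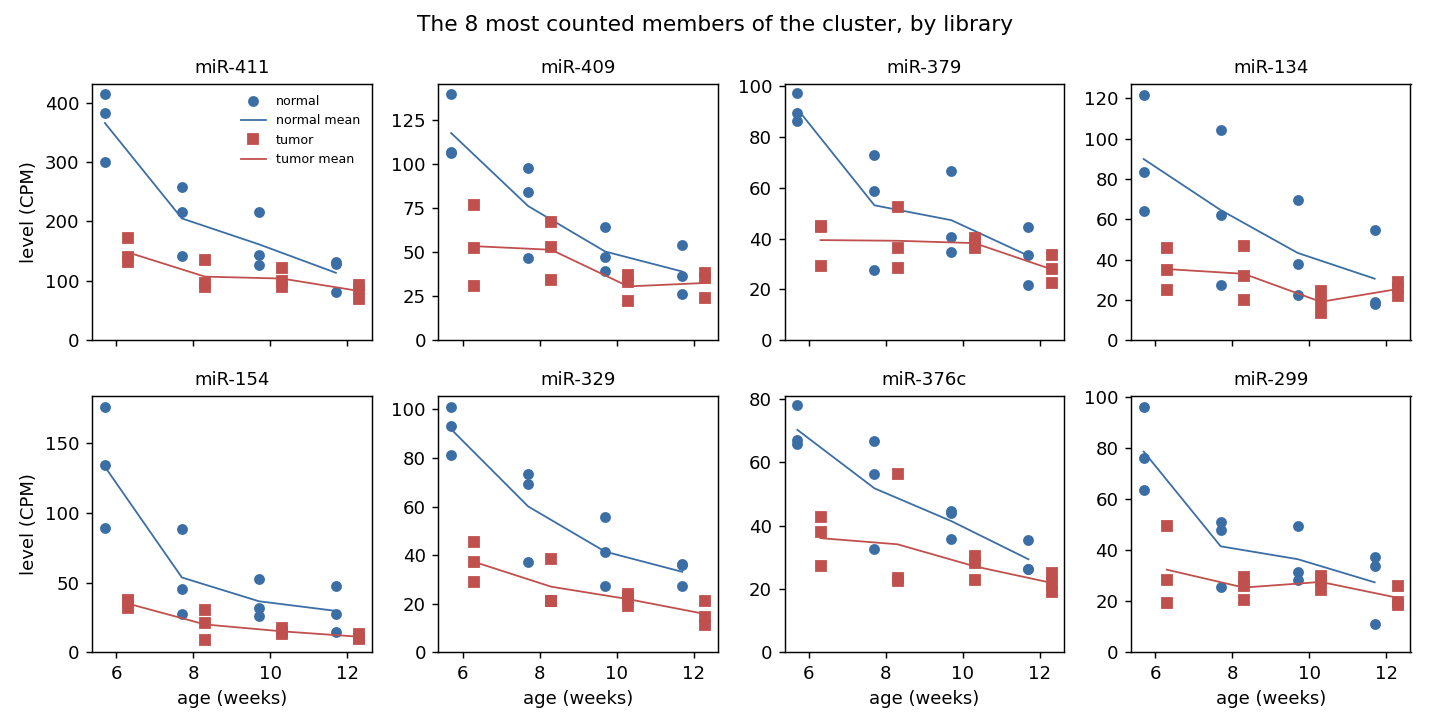
Level in CPM (y axis, from 0) of the 8 most counted members in each library by age in weeks (x axis), with normal glands as circles, tumors as squares and lines through the means of 3 libraries. In all 8 panels the mean of the normal glands of week 6 is highest, and the lines of normal gland and tumor lie closer at week 12 than at week 6.

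At week 6, in hyperplasia, almost the whole tested cluster was under-expressed. Of the 28 tested members, 25 were lower in tumor at an adjusted p under 0.05 and none was higher. Over all tested miRNAs 29.5% were called lower and 29.1% higher at this week, and 45 of the 209 other miRNAs were. The median log2 fold change of the members was -1.30, beside -0.12 over all tested miRNAs, and the 25 called members lay between -2.61 and -0.94 with adjusted p from 0.00258 to 0.0459 in edgeR. In 27 of the 28 members the 3 tumor libraries lay below the 3 normal libraries, which held for 34.6% of all tested miRNAs. The replicate block called the same 25. Without 1 library from 13 to 25 members were called, with 13 when the second tumor of week 6 was left out and 16 without the third, and in both cases a group had 2 libraries.

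The lowest log2 fold changes of week 6 were those of mir-539, mir-380 and mir-377, all of them low in counts. mir-539 and mir-380 passed the filter only through the normal glands of this week, the high group of the comparison, so that their low values were favoured by the filter. Of the 25 members kept without those glands, 23 were called. Among these, mir-377, mir-382 and mir-541 did not pass the filter on the tumor libraries alone, which likewise favoured their lower values in tumor. mir-539 had 13.7, 6.28 and 7.26 CPM in the normal glands and 1.495, 1.61 and 1.16 CPM in the tumors, and its log2 fold change was -2.61 (standard error 0.48, adjusted p = 0.0046) in edgeR. mir-380 had 6.61, 10.5 and 9.59 CPM in the normal glands and 3.49, 0.807 and 1.16 CPM in the tumors, with a log2 fold change of -2.16. mir-377, in an exon of Mirg, had 19.8, 16.1 and 12.7 CPM in the normal glands and 4.98, 0.807 and 4.65 CPM in the tumors, and its log2 fold change was -2.10. None of the 3 had an overlap between groups, and tumor libraries held as few as 1 count for mir-380 and mir-377. mir-410, at the far end of the cluster, had 67.6, 57.6 and 77.5 CPM in the normal glands and 28.9, 18.6 and 21.5 CPM in the tumors and a log2 fold change of -1.55 (standard error 0.25, adjusted p = 0.00296) in edgeR, with no overlap.

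The 3 members that did not pass the test at week 6 were mir-495, mir-1193 and mir-487b. mir-495 had 11.8, 18.1 and 22.8 CPM in the normal glands and 10.5, 8.88 and 11.04 CPM in the tumors, with a log2 fold change of -0.80 (standard error 0.31, adjusted p = 0.0571). For mir-1193, which shares a seed with miR-379-5p, the levels were 11.3, 7.33 and 7.52 CPM in the normal glands and 4.98, 6.46 and 4.07 CPM in the tumors (log2 fold change -0.75, adjusted p = 0.0788 in edgeR). The normal glands were above the tumors in both. mir-487b had 5.67, 9.42 and 4.15 CPM in the normal glands and 5.48, 1.61 and 4.65 CPM in the tumors and was the member whose groups overlapped, at a log2 fold change of -0.62.

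At week 8, in adenoma, the members again leaned towards lower levels in tumor, but the normal glands were far apart. Only mir-411 and mir-329 were called lower and none was called higher, beside 13.5% of all tested miRNAs called lower and 21.9% called higher. In mir-411 and mir-369 the tumors lay below the normal glands without overlap, which was seen for 19.8% of all tested miRNAs. The median log2 fold change was -0.58 over the members and -0.09 over all tested miRNAs, and 26 of 28 members had a negative value. Same-numbered tumor and normal libraries deviated together from their group means at this week (r = 0.347 to 0.528 over miRNAs). The labels state no pairing, and same-numbered libraries also shared a lane. At week 8 the first and second replicates of both tissues were on the first lane and the third replicates on the second. Lane and replicate number thus coincided only in part, and the part of either was not tested. With the replicate block 12 members were called lower, beside 28.7% of all tested miRNAs. The block added mir-134, mir-154, mir-299, mir-300, mir-369, mir-376c, mir-377, mir-410, mir-485 and mir-667, with adjusted p between 0.000383 and 0.0476. Leaving out the third tumor of week 8 gave 5 calls without the block and a median of -1.05. None was called without the first or second tumor, or without the second or the third normal gland.

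The lowest log2 fold changes of week 8 were those of mir-154, mir-377 (-1.32) and mir-667 (-1.19). As at week 6, the filter favoured the low value of mir-377. mir-377 had 3.54, 7.47 and 12.6 CPM in the normal glands and 0.607, 0 and 6.92 CPM in the tumors, and mir-667 had 9.15, 28.6 and 28.1 CPM in the normal glands and 3.64, 3.53 and 19.3 CPM in the tumors. In both, the third tumor stood well above the other tumors and within the range of the normal glands. Without that tumor the values were -3.99 for mir-377, -2.49 for mir-667 and -1.86 for mir-154, and with 1 of the other libraries left out the values nearest to 0 were -0.83, -0.80 and -0.85. The highest were those of mir-382 (0.49), mir-543 (0.22) and mir-380 (-0.03), none of which passed the test. mir-382 had 0.591, 3.52 and 6.31 CPM in the normal glands and 3.04, 3.53 and 6.42 CPM in the tumors, where the first normal gland held the lowest value. mir-543 had 6.202, 12.7 and 6.89 CPM in the normal glands and 4.86, 10.6 and 14.8 CPM in the tumors, with overlapping groups.

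At week 10, in early carcinoma, 12 of the 28 members were under-expressed in tumor and none was over-expressed, beside 27.4% of all tested miRNAs called lower and 32.9% called higher. They were mir-329, mir-667, mir-376c, mir-376b, mir-376a, mir-300, mir-382, mir-134, mir-668, mir-154, mir-377 and mir-541, with log2 fold changes from -1.47 to -0.61. Among them mir-382, mir-377 and mir-541 did not pass the filter on the tumor libraries alone, so that their lower values in tumor were favoured by the filter. All 28 members had a negative log2 fold change. The median was -0.89, beside -0.15 over all tested miRNAs. In 18 members the groups did not overlap, with the tumors lower, as in 31.6% of all tested miRNAs. With the replicate block mir-369, mir-411 and mir-487b passed the test as well (adjusted p = 0.0167, 0.0403 and 0.0471 in edgeR) and mir-376c did not, which gave 14 calls, beside 32.9% of all tested miRNAs called lower with the block. Without the first, the second or the third tumor of week 10 the fit called 4, 1 and 3 members, and without the first, the second or the third normal gland 18, 10 and 10.

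mir-300 was among the lowest at week 10, with 10.3, 18.04 and 30.3 CPM in the normal glands and 6.68, 8.16 and 6.35 CPM in the tumors and a log2 fold change of -1.47 (standard error 0.42, adjusted p = 0.0216) in edgeR. The tumors lay below the normal glands and close together. mir-487b had a log2 fold change of -1.58, from 2.31, 2.85 and 2.72 CPM in the normal glands and 1.43, 0.907 and 0 CPM in the tumors. It had 0 counts in the third tumor and at most 12 counts in the other libraries of the week. mir-487b too did not pass the filter on the tumor libraries alone, which favoured its lower value in tumor, with the replicate block as well. mir-541, in an intron of Mirg, had 4.62, 4.75 and 7.15 CPM in the normal glands and 1.43, 0.907 and 3.53 CPM in the tumors and a log2 fold change of -1.46. At the other end stood mir-543 (-0.02), mir-495 (-0.09) and mir-379. mir-543 had 5.902, 7.597 and 8.52 CPM in the normal glands and 6.68, 9.07 and 6.35 CPM in the tumors and mir-495 had 8.21, 10.7 and 8.17 CPM in the normal glands and 7.63, 9.98 and 8.47 CPM in the tumors. The groups overlapped in both, with adjusted p of 0.953 and 0.759 in edgeR.

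At week 12, in late carcinoma, mir-329, mir-300 and mir-154 were the members called lower in tumor, and none was called higher, beside 21.5% of all tested miRNAs called lower and 29.1% called higher. mir-300 had 12.3, 16.2 and 9.45 CPM in the normal glands and 7.45, 6.399 and 5.28 CPM in the tumors and a log2 fold change of -0.96 (standard error 0.31, adjusted p = 0.0337) in edgeR. Its tumors lay below its normal glands, but the call held in 1 of 8 alternatives, that with size factors of DESeq2. It was lost with the replicate block (adjusted p = 0.0657 in edgeR), with the test of DESeq2 (0.107) and in the others, where adjusted p lay between 0.0569 and 0.164. With library sizes only mir-154 was not called either (0.0953). The median over the members was -0.38 and that over all tested miRNAs -0.19, and 27 of 28 members had a negative value. In 6 members the groups did not overlap, beside 28.7% of all tested miRNAs. The calls changed with single libraries. None was called without the second or the third tumor or without the first normal gland, 1 was called without the second normal gland, and the median moved to -0.72 without the first tumor.

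mir-487b had the lowest value of week 12, -1.68 (standard error 0.75, adjusted p = 0.0959) in edgeR, from 3.56, 2.02 and 1.64 CPM in the normal glands and 0.784, 1.28 and 0 CPM in the tumors. Its groups were apart, at no more than 11 counts per library. The highest values were those of mir-380 (0.07), mir-376b (-0.01) and mir-1193 (-0.04). mir-376b had 6.48, 8.09 and 2.46 CPM in the normal glands and 7.45, 5.12 and 3.77 CPM in the tumors and mir-1193 had 2.59, 2.43 and 2.46 CPM in the normal glands and 1.96, 2.56 and 3.02 CPM in the tumors. The groups overlapped in both, and the tumor means of 5.45 and 2.51 CPM were close to those of the normal glands.

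Over the 4 ages, 25 of the 28 tested members had a negative log2 fold change in tumor at every week, as had 46.8% of all tested miRNAs, and mir-380, mir-543 and mir-382 had one at 3 weeks. Calls were fewer. mir-329 was called at 4 weeks and mir-300 and mir-154 at 3, while 10 members were called at 2 weeks, 12 at 1 and mir-1193, mir-495 and mir-487b at none. That made 3 members called lower at 3 or more weeks, 13 at 2 or more and 25 at 1 or more, beside 15.2%, 27% and 42.2% of all tested miRNAs.

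**Figure D3:**
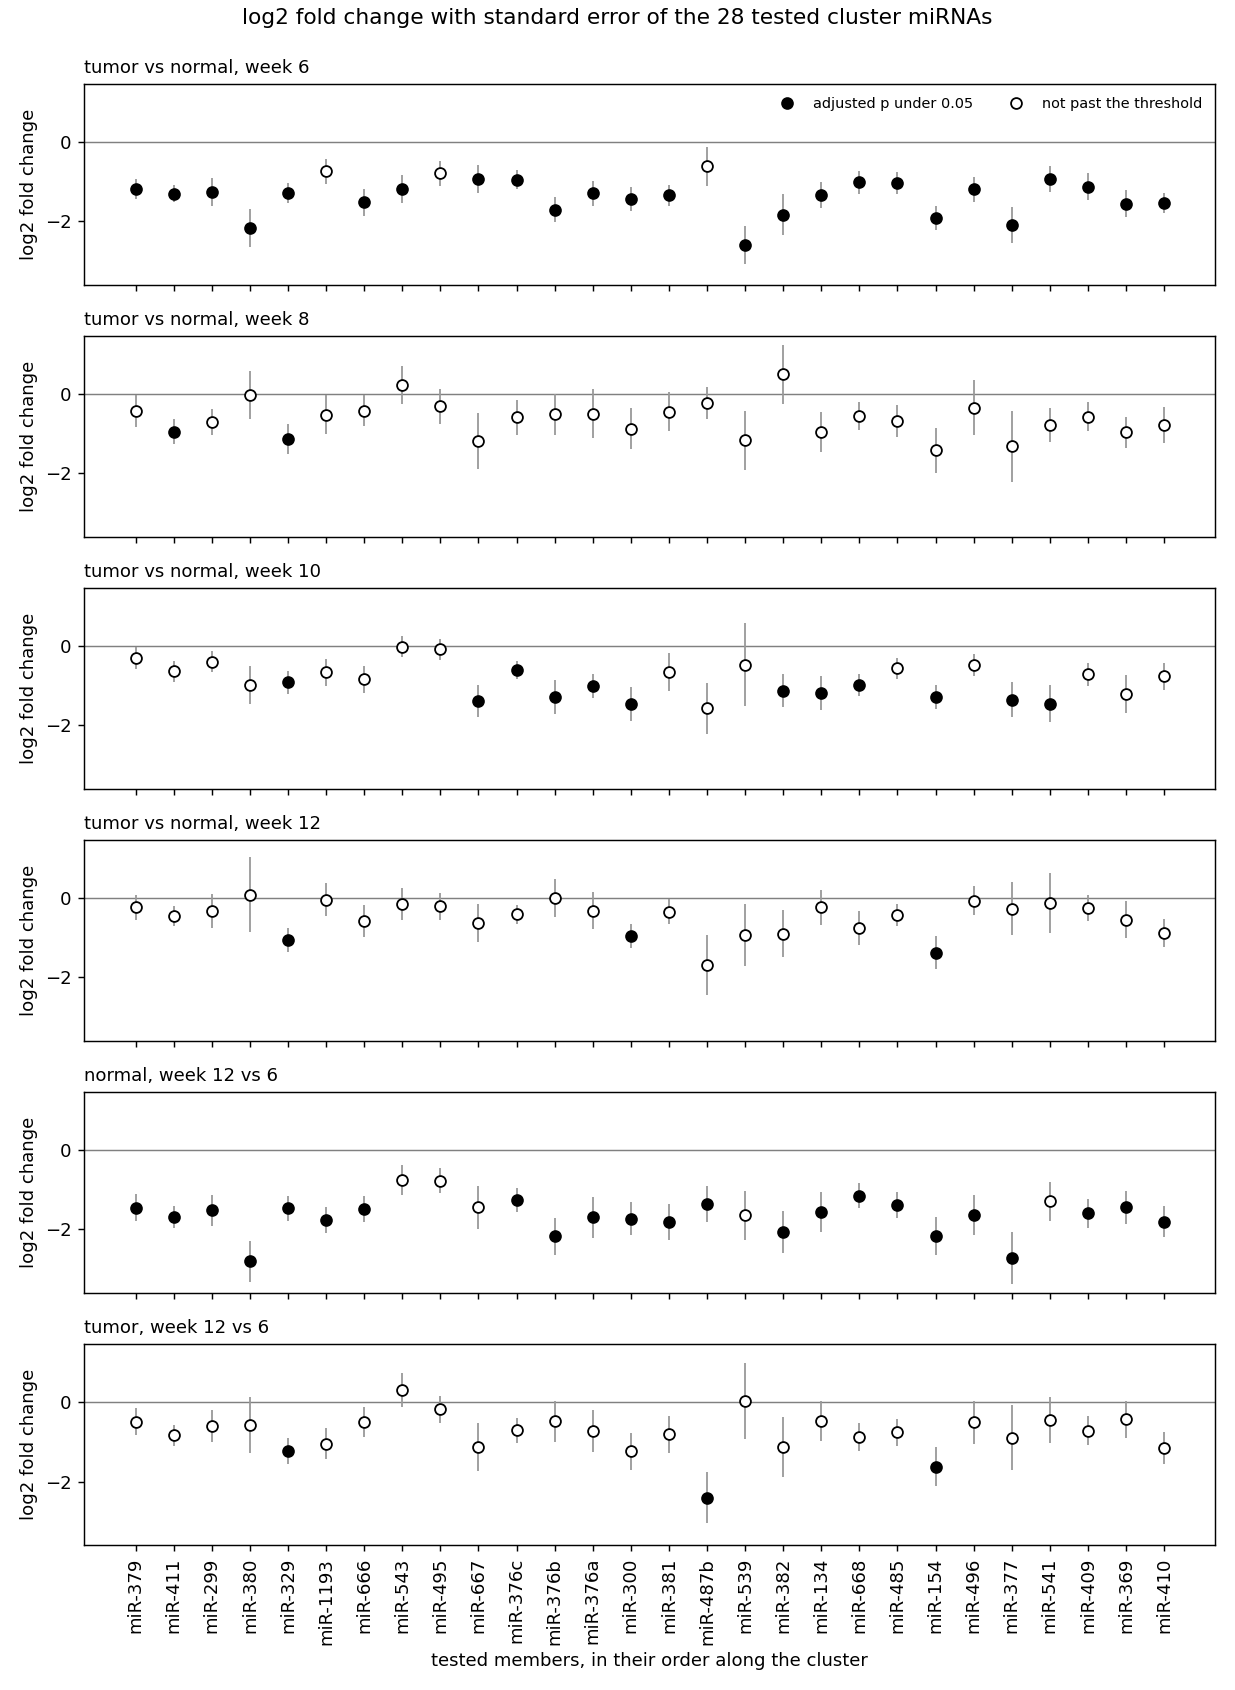
Log2 fold change with its standard error (y axis) of the 28 tested members in their order along the cluster (x axis), with a panel for each comparison and filled points where the adjusted p was under 0.05. Filled points number 25, 2, 12 and 3 in the panels of weeks 6, 8, 10 and 12, 23 in the normal gland between weeks 12 and 6, and 3 in the tumor.

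The cluster fell in the normal gland between week 6 and week 12. Of the 28 tested members, 23 were lower at week 12 in edgeR's test across all 24 libraries and none was higher. Among all tested miRNAs 15.6% were called lower and 5.49% higher. Of the 37 called lower, 14 lay outside the cluster. The median log2 fold change of the members was -1.58, whereas that of all tested miRNAs was 0.06. In 26 members the week 12 libraries lay below the week 6 libraries without overlap, which was so for 16.9% of all tested miRNAs. Without 1 library from 17 to 23 members were called. The summed level was 3.06-fold lower at week 12 than at week 6. The normal libraries of week 6 also enter the tumor comparison of that week, so that the 2 results are not independent of each other.

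The sums of the normal glands decreased at each age, and those of week 6 lay above those of week 8 without overlap, while neighbouring ages from week 8 to week 12 overlapped. The lowest log2 fold changes from week 6 to week 12 were those of mir-380 (-2.80), mir-377 (-2.72) and mir-376b (-2.18). mir-380, mir-487b and mir-539 were kept only through the week 6 glands, the high group here, which favoured their fall. Among these, mir-380 and mir-487b were called. Of the 25 members kept without those glands, 21 were called. mir-377 had 19.8, 16.1 and 12.7 CPM at week 6 and 1.94, 4.45 and 0.821 CPM at week 12, and mir-376b had 26.5, 21.3 and 30.1 CPM and 6.48, 8.09 and 2.46 CPM. Neither had an overlap between the ages. Among the most counted members, mir-154 fell by 2.17 on the log2 scale (standard error 0.47, adjusted p = 0.00324 in edgeR), mir-411 fell by 1.69 (adjusted p = 0.00129) and mir-379 fell by 1.45 (adjusted p = 0.00539). The 5 members that did not pass the test were mir-543, mir-495, mir-667, mir-539 and mir-541, with log2 fold changes from -1.65 to -0.75.

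In tumors fewer members were called between the ages than in normal gland, and the interaction contrast described next, which tests this difference, called none of the 28. mir-329, mir-487b and mir-154 were called lower at week 12 than at week 6 and none was called higher, beside 3.38% of all tested miRNAs called lower and 4.22% called higher. Their log2 fold changes were -1.23, -2.40 and -1.63, with adjusted p from 0.0336 to 0.0442 in edgeR. The median over the members was -0.72 and that over all tested miRNAs -0.08, and 12 members had no overlap between the ages, as had 21.1% of all tested miRNAs. The sum was 1.73-fold lower at week 12, and each tumor of week 6 had a higher sum than each of week 12. Without 1 library from 0 to 2 members were called. The count was 0 without the second or the third tumor of week 12 and without the first or the third tumor of week 6. mir-487b went from 5.48, 1.61 and 4.65 CPM to 0.784, 1.28 and 0 CPM, with 0 counts in 1 library. mir-543 had a value of 0.30, from 6.48, 5.65 and 4.65 CPM and 10.2, 4.48 and 5.28 CPM, with overlapping ages.

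Whether the tumor-normal difference itself changed between week 6 and week 12 was tested with an interaction contrast. None of the 28 members passed at an adjusted p under 0.05 in edgeR, with 3 positive values at an unadjusted p under 0.05, beside 5.91% of all tested miRNAs, and 0 calls by DESeq2, and over all tested miRNAs 0.422% were called in the negative direction and none in the positive. Positive values, that is a smaller deficit at week 12, were found for 27 of 28 members, beside 53.2% of all tested miRNAs, with a median of 0.89 beside 0.10 over all tested miRNAs. The 3 members with an unadjusted p under 0.05 were mir-380 (2.23, standard error 0.91), mir-376b (1.69, standard error 0.69) and mir-411 (0.85, standard error 0.38), whose adjusted p lay between 0.321 and 0.326 in edgeR. mir-380 and mir-539, both among the positive values, were kept by the filter only through the normal glands of week 6. High levels there raise this contrast, so that the filter favoured their positive values. mir-487b, at -1.05 (standard error 0.80), was the single negative value. For the 4 weeks together, 0 members varied at an adjusted p under 0.05 and 0 at an unadjusted p under 0.05. The lower number of calls at week 12 than at week 6 was therefore not shown to be a difference between the stages for any single member.

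**Figure D4:**
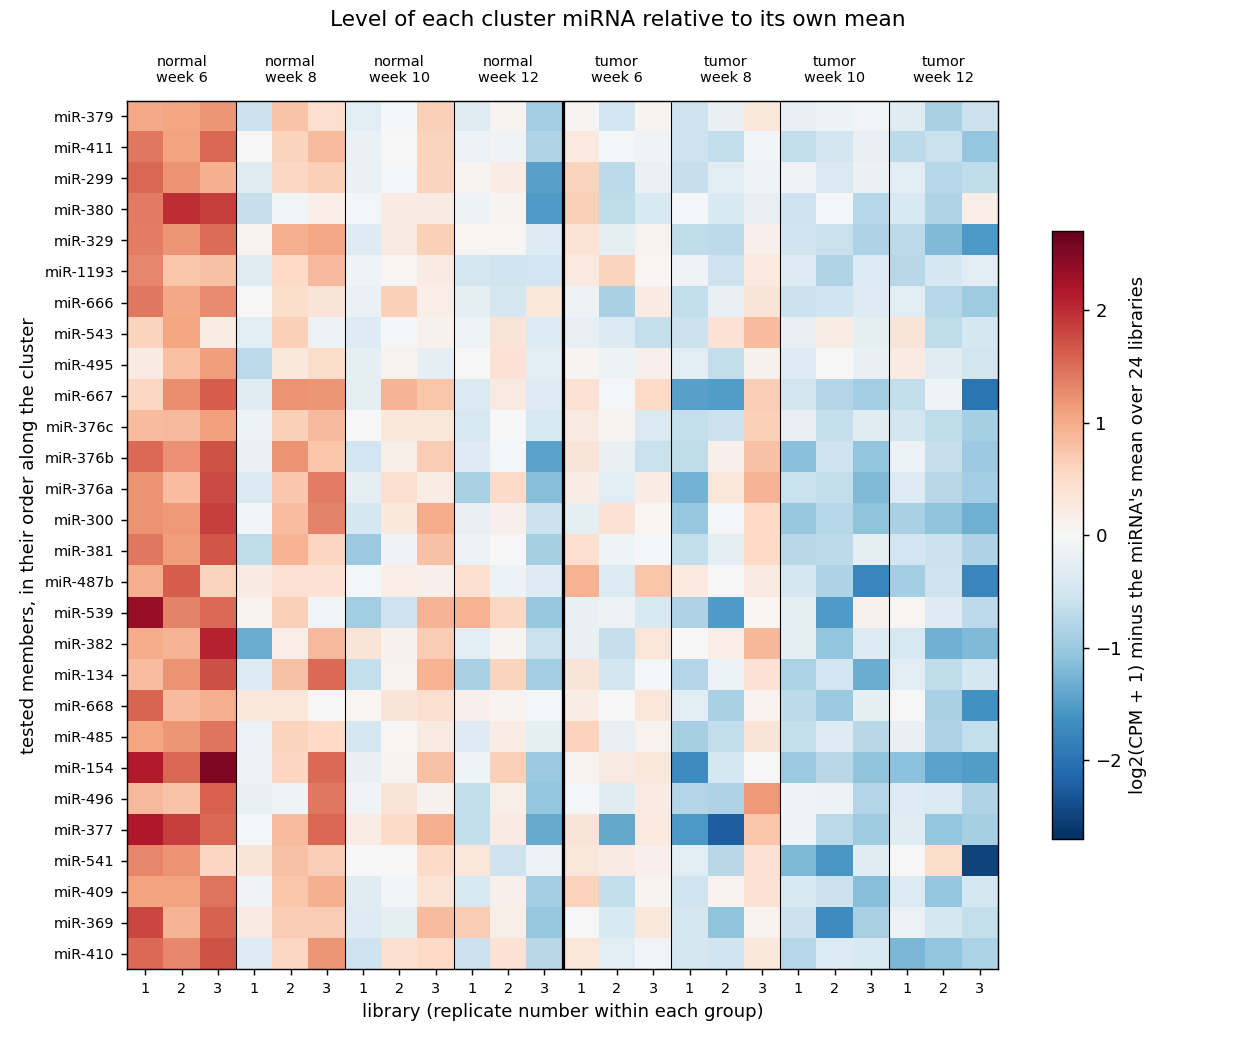
Log2(CPM + 1) of each of the 28 tested members (y axis, in their order along the cluster) in each of the 24 libraries (x axis, grouped by tissue and week), as the difference from the member's mean over all libraries, with red above and blue below the mean. The 3 normal libraries of week 6 are red across almost every member, and the third normal library of week 12 is bluer than the others of its group for most members.

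The members moved together from library to library. Spearman's rho between the levels of any 2 tested members over the 24 libraries had a median of 0.749 and ranged from 0.169 to 0.938 over 378 pairs, while the median over pairs of all tested miRNAs was -0.012. Since the points share libraries, depth and the group differences above, rho was also taken on deviations from the group means, where its median was 0.516 beside 0.017 over all tested miRNAs. Within normal libraries the median was 0.804 and within tumors 0.517 (n = 12 each). Pairs of a member with a tested proximal miRNA of the domain, described further on, had medians as high. These were 0.756 over the 24 libraries, 0.549 on deviations, 0.836 within normal libraries and 0.559 within tumors. A member's median rho rose with its level, with a correlation of 0.734 between its median rho and its mean CPM over the 28 members, and counting error weighs more on the low members.

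The members before Mirg and those inside it are given side by side, and the difference between these stretches was not tested. Summed levels at week 6 were 1196 ± 151 CPM in normal gland and 499 ± 87.3 CPM in tumor for the 28 members before Mirg, and 415 ± 82.8 CPM and 148 ± 31.3 CPM for the 9 inside (SD, n = 3). Of the tested members, 18 of 21 before Mirg and 7 of 7 inside were called lower at week 6, with median log2 fold changes of -1.30 and -1.55. From week 6 to week 12 in the normal gland, 17 of 21 and 6 of 7 were called lower, with medians of -1.52 and -1.63. At weeks 8, 10 and 12 the median log2 fold change of tumor against normal was -0.53, -0.85 and -0.42 before Mirg and -0.80, -1.22 and -0.27 inside, so that the inside members had the lower median at weeks 6, 8 and 10 and the higher at week 12. Calls at these weeks numbered 2, 9 and 2 before Mirg and 0, 3 and 1 inside. Over all tested miRNAs 29.5%, 13.5%, 27.4% and 21.5% were called lower in tumor at weeks 6, 8, 10 and 12. In the normal gland from week 6 to week 12 that share was 15.6%.

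The proximal miRNAs of the same domain, among them mir-127, mir-434, mir-431 and mir-433 near Rtl1, served as a comparison. Of 15 listed, 11 were tested. They were called lower in tumor in 11, 1, 2 and 1 cases at weeks 6, 8, 10 and 12, lower in the normal gland of week 12 than of week 6 in 11, and lower in the tumor of week 12 in 1. The shares of all tested miRNAs called lower were 29.5%, 13.5%, 27.4% and 21.5% at these weeks. With age they were 15.6% in normal gland and 3.38% in tumor. The mean summed level of the proximal miRNAs was from 22.9 to 28.6 times that of the distal cluster over the 8 groups, at 40521 ± 3516 CPM in the normal glands of week 6 and 18513 ± 3132 CPM in the tumors, and at week 12 it was 12872 ± 3194 and 9518 ± 1141 CPM (SD, n = 3). Over the 24 libraries the proximal and distal sums had a Spearman's rho of 0.960, and 0.935 on deviations from the group means, with library and scaling in common.

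**Figure D5:**
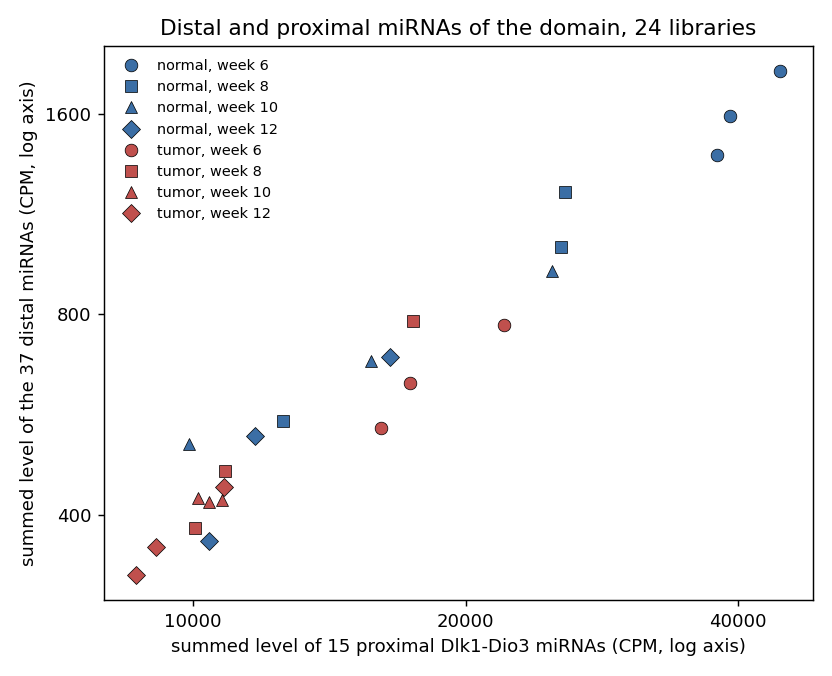
Summed level of the 37 distal miRNAs (y axis) against that of the 15 proximal miRNAs (x axis) of the Dlk1-Dio3 domain in CPM on log axes, with a point for each of the 24 libraries, colour for tissue and shape for week. The points rise together from the tumors of week 12, at 325 to 439.7 CPM of the distal sum, to the normal glands of week 6.

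Cell type markers among the miRNAs also differed between tumor and normal gland. Beside the counts below, 29.5%, 13.5%, 27.4% and 21.5% of all tested miRNAs were called lower in tumor at weeks 6, 8, 10 and 12. Shares called higher were 29.1%, 21.9%, 32.9% and 29.1%, and 5.49% were called higher in normal gland with age. The 7 mesenchyme and smooth muscle markers (such as mir-143, mir-145 and mir-199a) were called lower in tumor at each of the 4 weeks, and their summed level was 187024 to 212938 CPM in normal gland against 108160 to 128115 CPM in tumor at week 6, and 251102 to 328728 against 79844 to 153004 CPM at week 12. In the normal gland from week 6 to week 12 none of these 7 markers was called in either direction, which does not show them unchanged. Their log2 fold changes ran from 0.14 for mir-199b to 0.64 for mir-125b (adjusted p = 0.667 and 0.0726 in edgeR). The endothelial mir-126 was likewise lower in tumor at all 4 weeks and not called in the normal gland with age. Of the 7 epithelial markers (the mir-200 family, mir-205 and mir-203) 5 were called higher in tumor at every week, and at week 12 mir-203 was called lower (log2 fold change -1.87, adjusted p = 0.039 in edgeR), from 1555 to 8474 CPM in normal gland and 799.8 to 1342 CPM in tumor. The epithelial markers had sums of 7686 to 10912 CPM in normal gland and 19801 to 22126 CPM in tumor at week 6, and mir-203 was called higher in normal gland with age. The part of these cell types in the lower level of the cluster in tumor, or in its fall with age in normal gland, was not tested.

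The other marker lists were more variable. Skeletal muscle markers summed to between 93.6 and 87491 CPM in the normal glands of week 6, and all 3 tested were lower in tumor at week 12. Of 3 erythroid markers 1, 0, 1 and 3 were lower in tumor at weeks 6, 8, 10 and 12, and of the 3 tested leukocyte markers 1 was lower at each week. Beside the 29.5%, 13.5%, 27.4% and 21.5% of all tested miRNAs called lower, 1 call among 3 markers is not read further. Of the 5 neuron markers, mir-153 was listed at 0 in every library and mir-124 reached 5.18 CPM at most. The sum of the 5 was 40.5 to 71.3 CPM in the normal glands of week 6 and 80.5 to 171 CPM in those of week 12. Neuron markers lower in tumor numbered 1, 1, 2 and 1 of the 3 tested at weeks 6, 8, 10 and 12, and mir-9 was called higher in tumor at weeks 10 and 12 and reached 3218 CPM in a tumor of week 12. None of the tested muscle, erythroid, leukocyte or neuron markers was called between week 6 and week 12 in normal gland. Several list sums rest mostly on 1 miRNA. In the normal glands of week 6 the mean of mir-143 was 162462 CPM beside a mesenchyme sum of 203322 CPM. There mir-133a had 37583 of 38890 CPM of the skeletal muscle sum and mir-486 18760 of 21614.5 CPM of the erythroid sum. In the tumors of week 12 mir-9 had 1194 of 1214 CPM of the neuron sum. Over the 24 libraries the cluster sum had a rho of 0.367 with the mesenchyme sum, 0.421 with endothelial mir-126, 0.501 with the erythroid, 0.229 with the skeletal muscle, 0.249 with the leukocyte, -0.487 with the epithelial and -0.584 with the neuron sum. On deviations from the group means these were -0.318, -0.297, 0.162, 0.149, -0.395, 0.422 and -0.186, with libraries and scaling in common.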

How the data were processed

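miRNAs were measured in 24 small RNA libraries, 3 of PyMT tumors and 3 of FVB control glands per age (weeks 6, 8, 10 and 12). The authors trimmed barcode and adaptor, aligned short reads with Bowtie, counted reads overlapping a miRBase miRNA and deposited these counts, without normalization. The labels name mm9 and the study's methods mm10. Groups, weeks, replicate numbers and lanes come from the labels.

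Here the 37 members were tested within the whole table with edgeR 4.0.16 in R 4.3.3: filterByExpr over 8 groups, TMM, quasi-likelihood test, Benjamini-Hochberg adjustment over 237 miRNAs, threshold 0.05. Each week was fitted on its 6 libraries, and age and interaction contrasts on all 24. Each p-value sets a group difference against the spread between libraries of separate mice. In the age and interaction contrasts that spread was estimated over all 8 groups. Levels in CPM use TMM library sizes. Correlations use log2 of CPM plus 1. The procedure was tested on simulated data. Mature sequences are RefSeq's and positions GENCODE's for mm9.

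Same-numbered tumor and normal libraries deviated together from their group means at weeks 6, 8 and 10 (r = 0.197 to 0.817 over miRNAs, all 9 pairs over 0.1), not at week 12 (0.031, 0.428 and 0.073). The labels state no pairing.

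Named were the 8 members with the highest mean CPM, members called at a week, the 3 lowest and 3 highest log2 fold changes of each week, members that share a seed or end the cluster, and untested members. Members and lists were chosen with earlier results of these data known. Alternatives were size factors or the Wald test of DESeq2 1.42.0, plain library sizes, omitting the filter, a minimum of 10 counts throughout, the replicate block, lane as a covariate, a single fit, and each library left out. Thinning to the smallest library was chosen after seeing the data.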

Additional observations from a re-analysis of the deposited data

How the results depend on the processing

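All medians and summed ratios kept their direction under every alternative run. Counts of members called lower in tumor moved as follows. With library sizes only, 0 were called at week 8 and 0 at week 12, and 1 between the ages in tumor. Without a filter the counts were 0 at week 8 and 0 between the ages in tumor. With at least 10 counts in every library, where 12 members could be tested, 12 were called at week 6, 5 at week 10 and 12 between the ages in normal gland. The replicate block called 12 at week 8, lost mir-300 at week 12 (2 calls, adjusted p = 0.0657 in edgeR) and changed the calls of week 10 given above and no other, with 25 at week 6. Lane as a covariate gave 4 at week 8 and 6 between the ages in tumor, and the single fit gave 7 at week 10. Thinning, chosen after seeing the data, gave 5 at week 10, 0 at week 12 and 1 between the ages in tumor. DESeq2 called 23, 3, 10 and 2 at weeks 6, 8, 10 and 12. The interaction contrasts gave 0 under every alternative run. The blocked fit of either age comparison was not run, since each block lies within a week, and the Wald test was not run for the 4 weeks together.

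Leaving out 1 library gave 13 to 25 calls in the week 6 comparison, 0 to 5 in that of week 8, 1 to 18 in that of week 10 and 0 to 4 in that of week 12, besides 17 to 23 between the ages in normal gland, 0 to 2 in tumor and 0 to 0 for both interaction contrasts.

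Single miRNAs were followed through the alternatives in 105 results, which do not cover every member at every week. Among the results followed, signs turned only for miRNAs that had not passed the test. With library sizes only, mir-1193 and mir-376b were at 0.13 and 0.12 at week 12. mir-543 at week 10 was at 0.0049 with the block and 0.0025 with lane, and mir-380 at week 8 was at 0.0043 in the single fit. Thinned, mir-380 was at 0.37 at week 8, mir-543 at 0.19 at week 10, and mir-409, mir-1193, mir-376b and mir-380 at 0.034, 0.43, 0.15 and -0.026 at week 12. Without 1 library, log2 fold changes ranged from -0.34 to 0.27 (mir-380), -0.18 to 0.57 (mir-543) and -0.075 to 1.22 (mir-382) at week 8, from -0.17 to 0.073 (mir-543) at week 10, and at week 12 from -0.47 to 0.50 (mir-380), -0.18 to 0.045 (mir-1193), -0.52 to 0.019 (mir-409), -0.46 to 0.26 (mir-376b) and -0.52 to 0.42 (mir-134). The 3-count floor of 0.763 to 2.91 CPM limits mir-380, mir-487b, mir-539 and mir-382, whose mean levels were 2.47, 2.87, 2.63 and 3.76 CPM.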
